A study of Mus musculus with 12 samples.

Results

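The circadian clock genes Per1, Per2, Per3, Cry1, Cry2, Nr1d1, Nr1d2, Dbp, Tef and Clock were examined after cytokine stimulation of 3T3-L1, a clonal fibroblast line derived from mouse embryos that can be made to differentiate into adipocytes. The 10 genes were taken by symbol from a table of 56941 genes. All 10 passed the filter on low counts, as did 14810 genes in all. Poly(A) RNA was sequenced in bulk from 4 conditions with 3 libraries each, all wild type and all collected after 24 hours. Control cells received vehicle. IL-4/13 cells received IL-4 and IL-13 at 50 ng/mL each. Inf cells received 20 ng/mL TNF-α together with 50 ng/mL IL-17A and 0.5 ng/mL IL-1β. IL-4/13 + Inf cells received all 5 cytokines at these doses. Whether libraries came from separate cultures is not given in the labels, so p-values measure the spread between these libraries, which may be technical.

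The mammalian clock is a transcriptional feedback loop that runs in nearly every cell, fibroblasts included. CLOCK and its partner BMAL1 bind E-box sequences and switch on the Per and Cry genes, whose proteins return to the nucleus and block CLOCK and BMAL1. In a second loop, the nuclear receptors encoded by Nr1d1 and Nr1d2 (REV-ERBα and REV-ERBβ) repress Bmal1 and other genes through ROR elements, where the ROR receptors activate. Dbp and Tef encode PAR bZIP factors that activate genes through D-boxes, the sequence at which NFIL3 represses. Levels of most of these mRNAs oscillate over the day, and a single collection time cannot tell a shift of phase from a change of mean level.

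Promoter sequence of the members was read from RefSeq windows of 300 bases, 250 before and 50 after each annotated start (mouse build GRCm38.p6, whereas the reads were aligned to GRCm39). Windows were at hand for 9 of the 10 genes, all but Per2. The stretches below lie upstream of the start and are given for 3 genes whose level changed with Inf (Per1, Cry2, Nr1d1), for Cry1, the paralog of Cry2 that was not called, and for Per3, with 2 D-boxes. Capitals mark the E-box CACGTG, the E-box variant CACGTT (read on the other strand as AACGTG) or the D-box TTATGTAA.

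Per1, chr11:69098758-69098813, plus strand: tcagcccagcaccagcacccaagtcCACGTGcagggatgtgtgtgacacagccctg

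Cry1, chr10:85185084-85185158, minus strand: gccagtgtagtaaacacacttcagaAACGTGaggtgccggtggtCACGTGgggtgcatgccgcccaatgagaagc

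Cry2, chr2:92434205-92434260, minus strand: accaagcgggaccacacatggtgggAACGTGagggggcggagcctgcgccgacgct

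Nr1d1, chr11:98775378-98775430, minus strand: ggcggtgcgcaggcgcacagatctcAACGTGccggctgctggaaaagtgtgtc

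Per3, chr4:151044791-151044895, minus strand: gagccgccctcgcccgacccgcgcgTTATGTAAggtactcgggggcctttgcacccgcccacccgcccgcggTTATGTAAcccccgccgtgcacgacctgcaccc

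The E-box of Per1 begins at -166 from its first annotated start, and that of Cry1 at -60. Both annotated starts of Tef also have an E-box, at -127 and -138. Over all 32851 windows, searched on both strands, CACGTG occurred in 7.15%, CACGTT in 4.68% and TTATGTAA in 0.938%. The D-box variant TTACGTAA (0.119% of windows), the ROR element core TAGGTCA (2.61%) and the cAMP element TGACGTCA (1.79%) were not found in any member's window. The windows of Nr1d2, Dbp and Clock and the second window of Per1 held none of the 6 motifs, which says only that these letters are absent from these stretches.

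Sequencing depth was 13446005 to 20775769 counted reads per library. The replicate libraries of each condition differed by more than sampling noise, so none was a duplicate, and Inf replicate 3 differed most from its group, with a chi-square per gene of 8.05 and 8.35 against the other Inf libraries, where the other pairs lay between 2.25 and 4.57. All 10 fibroblast markers were detected. Their summed level was 16666 to 19435 CPM, the count scaled to the library total and its TMM factor, in control libraries. It was 14332 to 15123 in IL-4/13, 13834 to 15261 in Inf and 11769 to 12140 in IL-4/13 + Inf libraries. This sum was led by Col1a2, and single markers went both ways. With Inf against control 4 of 10 were called higher and 5 lower by the rule given below, against 16.3% and 15.3% of all tested genes. Dcn went from 103 ± 4.31 CPM in control to 1756 ± 72.0 in Inf libraries (n = 3 each). Col1a2 went from 5541 ± 427 to 3813 ± 266 CPM. Of 10 adipocyte markers, 7, Adipoq and Plin1 among them, had at most 3 counts in every library. The summed adipocyte list stood at 33.5 to 37.0 CPM in control, 35.5 to 43.7 in IL-4/13, 56.0 to 58.6 in Inf and 35.9 to 42.2 in IL-4/13 + Inf libraries. Of 12 macrophage markers, 4 (Adgre1, Itgam, Tyrobp and C1qa) had at most 3 counts in every library, and the summed list, led by Cd14, was 21.2 to 24.7 CPM in control, 24.8 to 26.8 in IL-4/13, 50.1 to 63.4 in Inf and 47.8 to 53.7 in IL-4/13 + Inf libraries. In 4 of 5 keratinocyte markers counts also stayed at 3 or fewer, and the endothelial list summed to at most 1.64 CPM. The part of these marker levels in the results for clock genes was not tested, and in bulk RNA fewer cells of a type cannot be told apart from less RNA per cell.

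Levels below are CPM scaled by TMM, with mean ± SD over 3 libraries. A gene was called when edgeR's quasi-likelihood test gave a Benjamini-Hochberg adjusted p under 0.05 over all 14810 genes and the log2 fold change lay beyond 0.25 in either direction. Comparisons with libraries in common are not independent of each other.

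**Figure D1:**
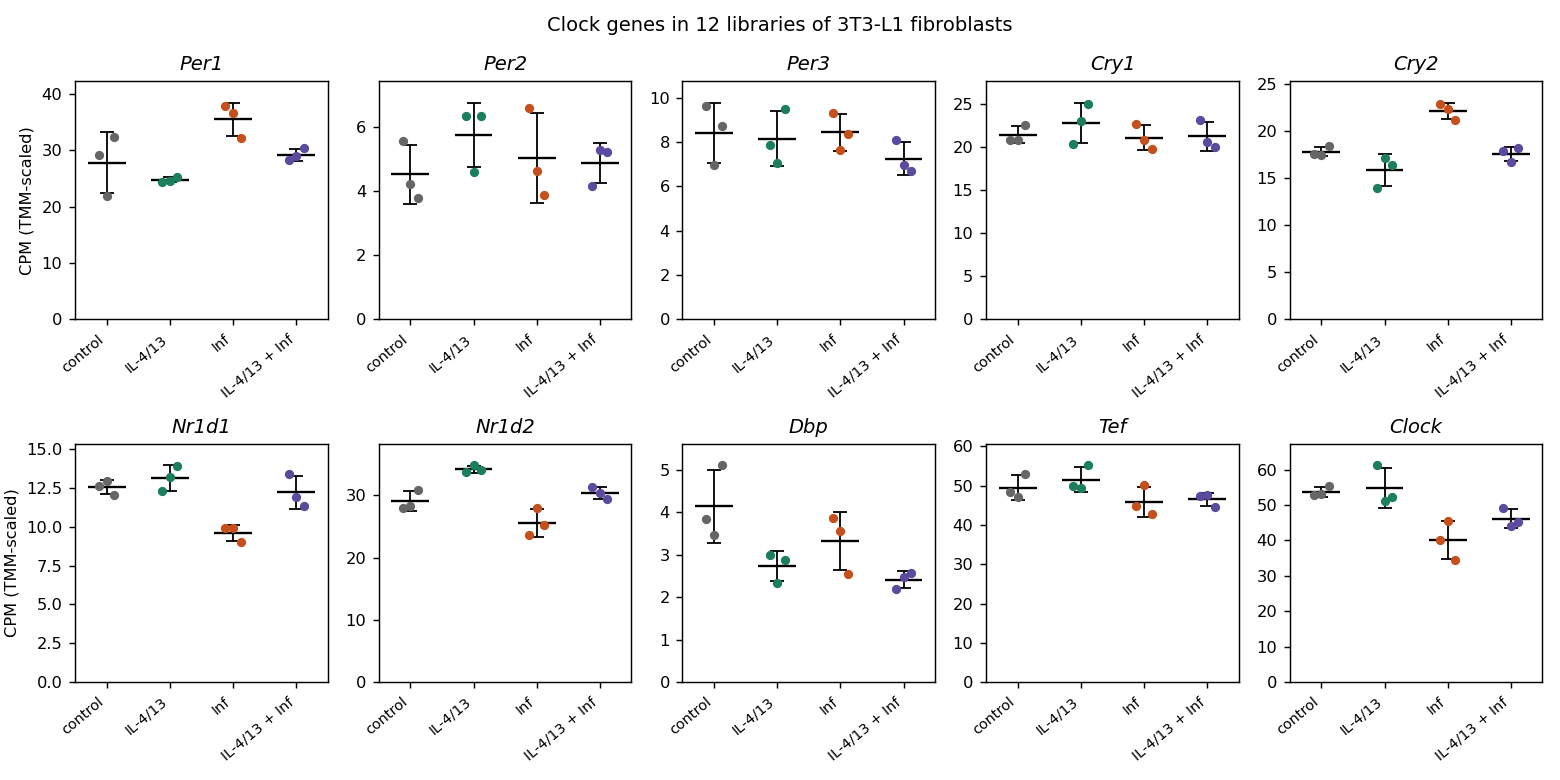
CPM of each clock gene (vertical axis, linear from 0) in the 3 libraries of each condition (points), with the mean (long bar) and SD (error bar). Inf libraries sit highest for Cry2 (21.2 to 22.9 CPM) and lowest for Nr1d1 (9.03 to 9.90 CPM), apart from every library of the other conditions.

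Inf cytokines changed 4 of the 10 clock genes relative to control, 2 in each direction. Per1 and Cry2, both repressors of the core loop, rose, while Nr1d1, the repressor of the second loop, and Clock, the activator itself, fell. The sizes were modest, from 0.75-fold to 1.28-fold. The counts are 2 of 10 higher and 2 of 10 lower, against 16.3% and 15.3% of all tested genes, and the median log2 fold change was -0.06 over the 10 genes and 0.01 over all tested genes.

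Clock (ENSMUSG00000029238) encodes the DNA-binding partner of BMAL1. In control libraries it was measured at 52.7, 53.2 and 55.3 CPM (53.7 ± 1.39, n = 3). In Inf libraries it was 40.3, 45.5 and 34.6 CPM (40.1 ± 5.44, n = 3), so every Inf library lay below every control library. The fitted log2 fold change was -0.42 (SE 0.083, edgeR adjusted p = 2e-04), a 0.749-fold level. Inf replicate 3 was the lowest library of all 12 for Clock. Without it the fitted difference was -0.32 on the log2 scale (edgeR adjusted p = 6e-04) and the call stood. Clock stayed called in each of 12 fits that left out 1 library, with log2 fold changes from -0.52 to -0.32.

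Nr1d1 (ENSMUSG00000020889) measured 12.6, 13.0 and 12.1 CPM in control (12.6 ± 0.45, n = 3). It measured 9.90, 9.89 and 9.03 CPM in Inf libraries (9.61 ± 0.50, n = 3). The groups did not overlap, and the log2 fold change was -0.38 (SE 0.11, edgeR adjusted p = 0.0046). Its paralog Nr1d2 (ENSMUSG00000021775) had 27.9, 28.3 and 30.8 CPM in control and 23.6, 28.0 and 25.2 CPM in Inf libraries. For Nr1d2 the groups overlapped through Inf replicate 2, and the log2 fold change of -0.18 was not called (95% interval -0.33 to -0.02, edgeR adjusted p = 0.067). The difference between the paralogs was not tested. The count ratio of Nr1d1 to Nr1d2 within a library, which does not depend on scaling, was 0.391 to 0.458 in control and 0.353 to 0.420 in Inf libraries, and these ranges overlap.

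Cry2 (ENSMUSG00000068742), a cryptochrome that represses CLOCK and BMAL1, had 17.5, 17.5 and 18.4 CPM in control (17.8 ± 0.52, n = 3). Inf libraries had 22.9, 22.4 and 21.2 CPM (22.1 ± 0.87, n = 3), all above control, for a log2 fold change of 0.31 (SE 0.089, edgeR adjusted p = 0.0053). The other cryptochrome, Cry1 (ENSMUSG00000020038), read 20.9, 20.8 and 22.6 CPM in control and 22.7, 20.8 and 19.8 CPM in Inf libraries. These Cry1 values overlap, and the log2 fold change was -0.02 (95% interval -0.21 to 0.16). Within libraries the count ratio of Cry2 to Cry1 was 0.816 to 0.841 in control and 1.01 to 1.07 in Inf, with no overlap. Cry2 was thus the less counted cryptochrome in every control library and the more counted one in every Inf library, although the genes differ in length.

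Per1 (ENSMUSG00000020893), an early-responding Period gene, had 29.3, 21.8 and 32.3 CPM in control (27.8 ± 5.40, n = 3) and 37.8, 36.6 and 32.3 CPM in Inf libraries (35.5 ± 2.92, n = 3). It was called at a log2 fold change of 0.35 (SE 0.098, edgeR adjusted p = 0.0051), yet the groups touched, since the highest control and the lowest Inf library both stood at 32.3 CPM. Control replicate 2, the lowest, carried much of the difference. Without control replicate 2, Per1 differed by 0.21 on the log2 scale and was not called, and the other 11 fits that left out 1 library kept the call. The remaining Period genes overlapped between these groups, Per2 (ENSMUSG00000055866) with a log2 fold change of 0.14 (95% interval -0.26 to 0.54) and Per3 (ENSMUSG00000028957) with -0.01 (95% interval -0.30 to 0.28).

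The PAR bZIP genes were not called with Inf. Dbp (ENSMUSG00000059824) had 3.83, 3.47 and 5.10 CPM in control and 3.85, 3.56 and 2.55 CPM in Inf libraries, at a log2 fold change of -0.32 (95% interval -0.74 to 0.10). Without control replicate 3 the value for Dbp was -0.14, without Inf replicate 3 it was -0.16, and over all 12 fits it ran from -0.42 to -0.14. Tef (ENSMUSG00000022389), at 48.3, 47.1 and 53.0 CPM in control and 44.9, 50.1 and 42.7 CPM in Inf libraries, had a log2 fold change of -0.11 (95% interval -0.25 to 0.04). Tef was among the steadiest of the 10 genes, and Dbp among the least precisely measured, resting on 36 to 85 counts per library.

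**Figure D2:**
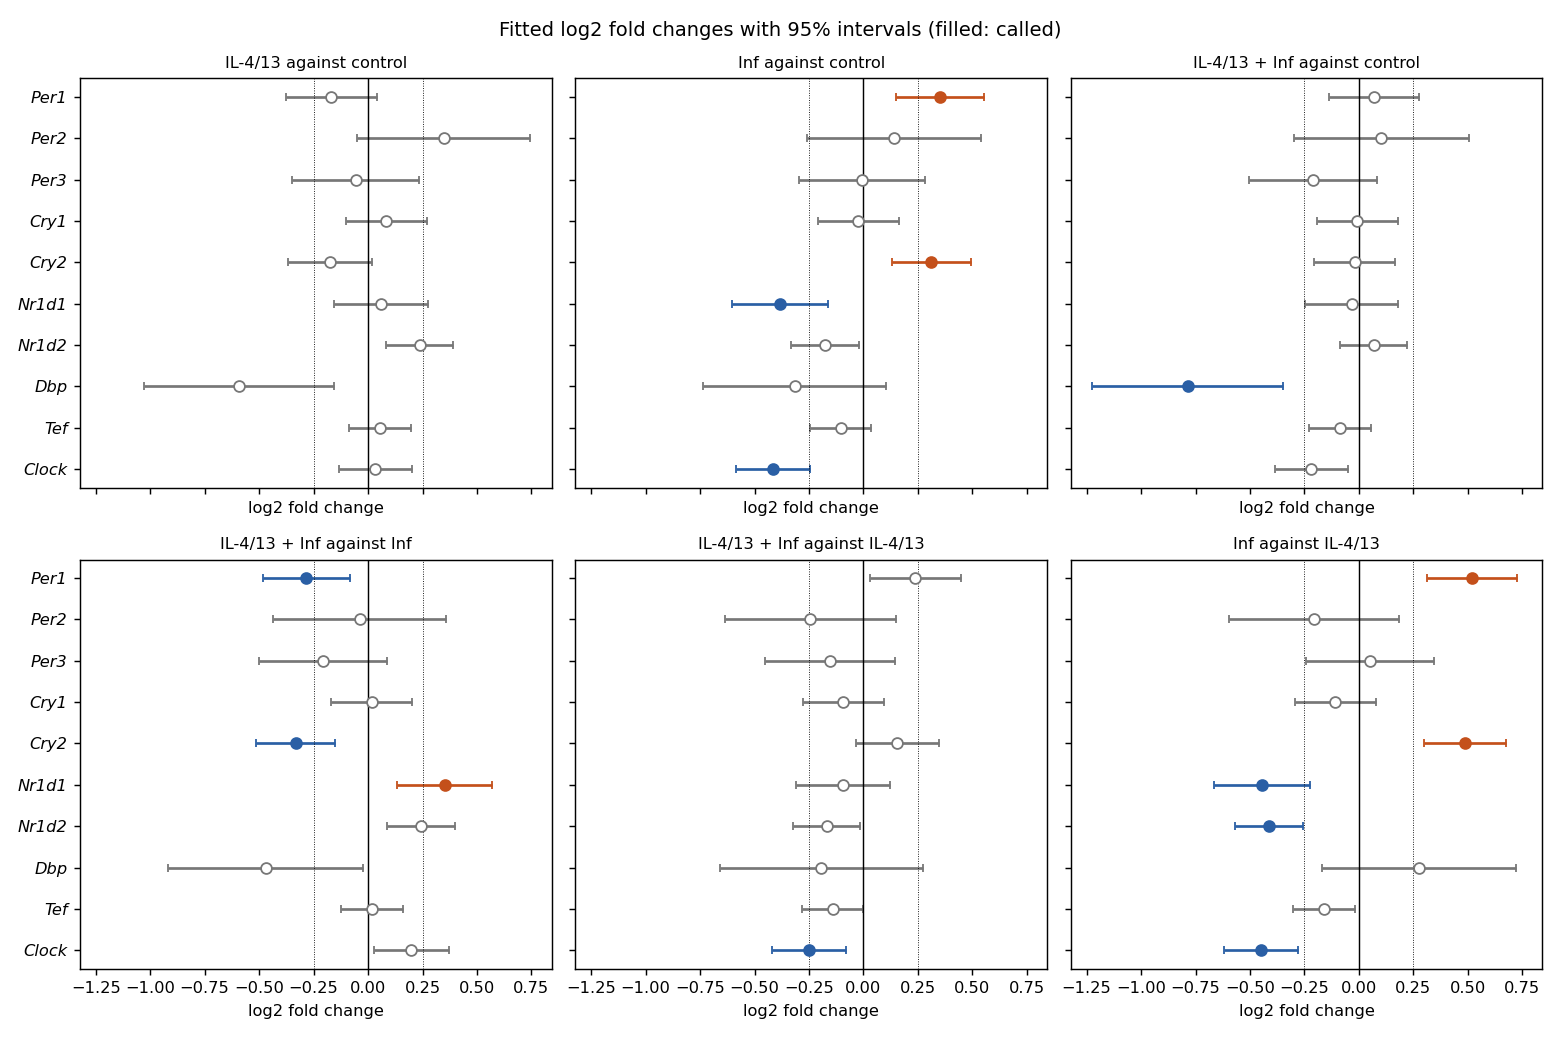
Fitted log2 fold change of each clock gene (points) with its 95% interval (bars) in 6 comparisons, one per panel, with dotted lines at ±0.25. Filled points were called, red for higher and blue for lower. The panel of Inf against IL-4/13, which also had the most calls over all tested genes, has the most. In it Per1 and Cry2 lie to the right of 0 and Nr1d1, Nr1d2 and Clock to the left.

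IL-4/13 alone called no clock gene against control. In these libraries 2.78% of all tested genes were called higher and 2.57% lower. By edgeR, 2 of the 10 had an unadjusted p under 0.05, Nr1d2 and Dbp, against 3100 of 14810 tested genes. DESeq2 also called no clock gene. Nr1d2 stood at 33.7, 34.8 and 34.1 CPM with IL-4/13 (34.2 ± 0.55, n = 3), all above its 3 control values. Its log2 fold change was 0.24 (SE 0.076, 95% interval 0.08 to 0.39, edgeR adjusted p = 0.048), past the p threshold but inside the fold threshold. Without control replicate 3 it was called, at 0.28 on the log2 scale (edgeR adjusted p = 0.048). Dbp stood at 3.00, 2.33 and 2.87 CPM (2.73 ± 0.35, n = 3), below all 3 control values, with a log2 fold change of -0.59 (SE 0.21, 95% interval -1.03 to -0.16, edgeR adjusted p = 0.085). The 3 IL-4/13 libraries of Cry2, at 14.0, 17.2 and 16.4 CPM, also lay below control, with a log2 fold change of -0.18 (95% interval -0.37 to 0.02).

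The other 7 genes overlapped between IL-4/13 and control, and the share of all tested genes that did so was not counted. Per1 had 24.4, 24.6 and 25.4 CPM with IL-4/13, a tighter group than its control (log2 fold change -0.17, 95% interval -0.38 to 0.04), and it was called lower without control replicate 2 (-0.31, edgeR adjusted p = 0.025). Per2, with 5.54, 4.22 and 3.78 CPM in control and 6.32, 4.60 and 6.32 CPM with IL-4/13, had the widest interval among them (log2 fold change 0.35, 95% interval -0.05 to 0.74). Per2 encodes a scaffold of the repressor complex. Clock had 61.2, 51.1 and 52.2 CPM and a log2 fold change of 0.03 (95% interval -0.13 to 0.20). Nr1d1 had 12.3, 13.2 and 13.9 CPM and a log2 fold change of 0.06 (95% interval -0.15 to 0.28). For Per3, Cry1 and Tef the log2 fold changes were -0.06, 0.08 and 0.05.

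With both mixtures together, Inf-type changes of Per1, Cry2 and Nr1d1 were not called against control, and Dbp was the clock gene that changed. Dbp had 2.18, 2.47 and 2.56 CPM in IL-4/13 + Inf libraries (2.41 ± 0.20, n = 3) against 4.13 ± 0.86 CPM in control (n = 3). All 3 libraries lay below control, and the log2 fold change was -0.79 (SE 0.21, edgeR adjusted p = 0.0044), a 0.58-fold level. The call needed control replicate 3, the highest library at 5.10 CPM, for without it Dbp had a log2 fold change of -0.61 (edgeR adjusted p = 0.052). This is 1 of 10 genes lower and 0 of 10 higher, where 11.5% and 13.4% of all tested genes were called.

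Clock measured 49.2, 44.0 and 45.1 CPM in IL-4/13 + Inf libraries (46.1 ± 2.75, n = 3). All were below control, and the log2 fold change of -0.22 (95% interval -0.39 to -0.05, edgeR adjusted p = 0.042) fell short of the fold threshold. Without IL-4/13 + Inf replicate 1 it was called at -0.26 (edgeR adjusted p = 0.034). For the repressors the values lay among or near those of control. Cry2 read 17.9, 16.8 and 18.2 CPM (log2 fold change -0.02, 95% interval -0.21 to 0.17), Nr1d1 13.4, 11.9 and 11.3 CPM (-0.03, 95% interval -0.25 to 0.18) and Per1 28.3, 29.0 and 30.4 CPM (0.07, 95% interval -0.14 to 0.27). These intervals exclude a change in Cry2 and Nr1d1 as large as the fitted one with Inf alone.

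Set directly against Inf, cells that also received IL-4/13 had less Cry2 and Per1 and more Nr1d1. Cry2 fell at a log2 fold change of -0.33 (SE 0.089, edgeR adjusted p = 0.0065), with every IL-4/13 + Inf library below every Inf library. Nr1d1 rose at 0.35 on the log2 scale (SE 0.11, edgeR adjusted p = 0.017), with every library above. Per1 fell at -0.28 on the log2 scale (SE 0.097, edgeR adjusted p = 0.037), again without overlap. The counts were 1 of 10 higher and 2 of 10 lower, against 7.55% and 7.00% of all tested genes. Since the Inf libraries enter both comparisons, a high or low Inf group would by itself give opposite signs in them.

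Of these calls Cry2 was the steadiest, called in all 12 fits that left out 1 library. Nr1d1 lost its call without Inf replicate 3 (log2 fold change 0.31, edgeR adjusted p = 0.06) and without IL-4/13 + Inf replicate 1 (0.28, edgeR adjusted p = 0.13), and was called in 10 fits. Per1 was called in 7 of 12 fits, and lost its call without Inf replicate 1 or 2 or without any of the IL-4/13 + Inf libraries, at log2 fold changes from -0.35 to -0.24 over all 12. The other member that separated these groups was Nr1d2, at 31.3, 30.4 and 29.4 CPM in IL-4/13 + Inf (30.4 ± 0.99, n = 3) and 25.6 ± 2.24 CPM in Inf libraries (n = 3). Its log2 fold change of 0.24 (95% interval 0.09 to 0.40, edgeR adjusted p = 0.02) lay just inside the fold threshold, and it was called without Inf replicate 2 (0.32) or without IL-4/13 + Inf replicate 3 (0.27). Clock had a log2 fold change of 0.20 against Inf (95% interval 0.03 to 0.37, edgeR adjusted p = 0.092) and was called without Inf replicate 2 (0.31), while without Inf replicate 3 it was 0.10 (edgeR adjusted p = 0.36). Dbp, at -0.47 on the log2 scale (95% interval -0.92 to -0.02, edgeR adjusted p = 0.13), crossed the threshold without Inf replicate 3 by a small margin (-0.62, edgeR adjusted p = 0.0496).

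**Figure D3:**
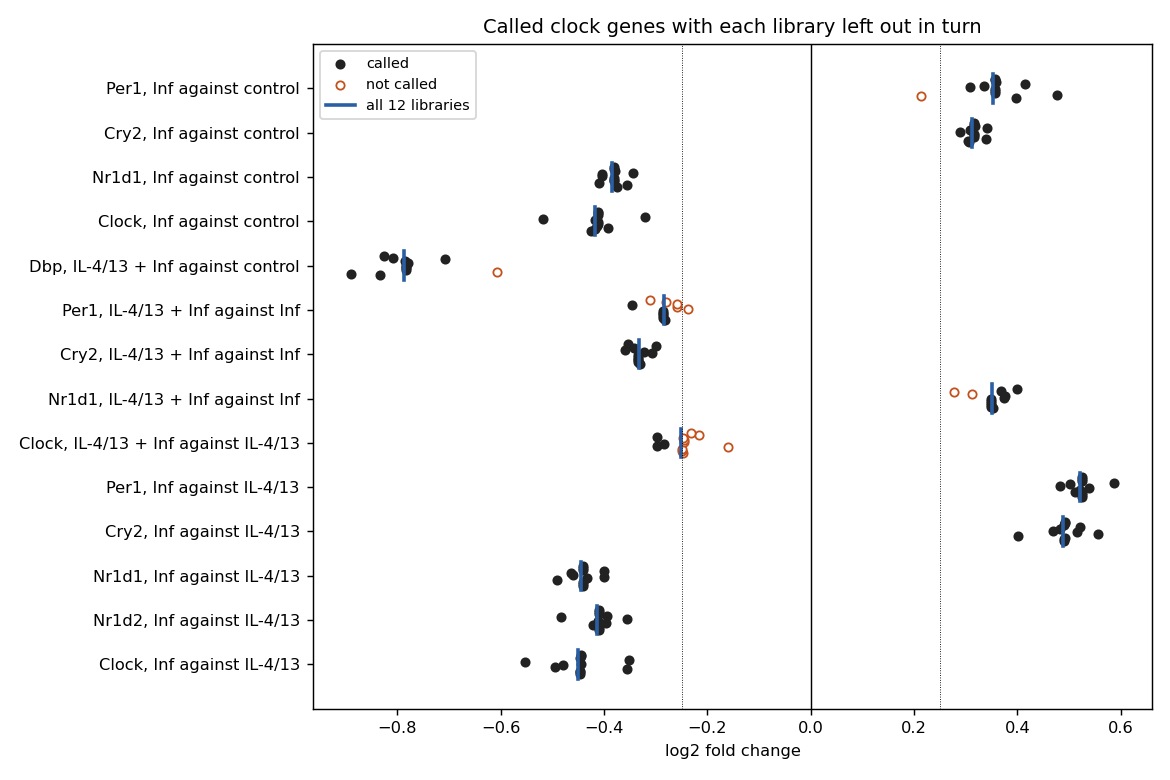
Log2 fold change (horizontal axis) of each called clock gene when each of the 12 libraries was left out in turn (points), with the value from all libraries (blue bar) and dotted lines at ±0.25. Points of Cry2 stay called in all 3 of its comparisons, whereas Clock in IL-4/13 + Inf against IL-4/13 is called in 3 of 12 fits.

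Adding Inf to IL-4/13 called 1 of 10 genes lower, Clock, and 0 higher, where 11.0% and 13.3% of all tested genes were called. The log2 fold change of Clock was -0.25 (SE 0.082, edgeR adjusted p = 0.019), at the very edge of the fold threshold, and the call held in 3 of the 12 fits that left out 1 library. Values from those fits ran from -0.30 to -0.16, the latter without IL-4/13 replicate 1 (edgeR adjusted p = 0.19). Per1 (log2 fold change 0.24, 95% interval 0.03 to 0.45) lay above, and Nr1d2 (-0.17, 95% interval -0.32 to -0.02) and Tef (-0.14) below, their IL-4/13 libraries without overlap, and none was called.

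The comparison with the most calls among these genes was that between the mixtures themselves. It also had the most calls over all tested genes, 5556 of 14810. Against IL-4/13, Inf libraries were higher in 2 of 10 clock genes and lower in 3 of 10, where 19.5% and 18.0% of all tested genes were called. Per1 (log2 fold change 0.52, SE 0.10, edgeR adjusted p = 0.00012) and Cry2 (0.49, SE 0.091, edgeR adjusted p = 5.2e-05) were higher. Clock (-0.45, SE 0.083, edgeR adjusted p = 7.2e-05), Nr1d1 (-0.44, SE 0.11, edgeR adjusted p = 0.0011) and Nr1d2 (-0.41, SE 0.077, edgeR adjusted p = 4.5e-05) were lower. All 5 were called in all 12 fits with 1 library left out. Nr1d2 was called in this comparison only, its log2 values against control being 0.24 with IL-4/13 and -0.18 with Inf.

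Whether the response to IL-4/13 differed with and without Inf was tested by the interaction term, the log2 change of IL-4/13 + Inf against Inf minus that of IL-4/13 against control. By edgeR no clock gene was called, while 1.52% of all tested genes were called higher and 1.59% lower. None of the 10 had an unadjusted p under 0.05 by edgeR, against 2101 of 14810 tested genes. DESeq2 also called no clock gene. The value farthest from 0 relative to its error was Nr1d1, at 0.29 on the log2 scale (SE 0.15, 95% interval -0.02 to 0.60, edgeR adjusted p = 0.39). For Per1 it was -0.12 (95% interval -0.41 to 0.18) and for Cry2 -0.16 (95% interval -0.42 to 0.11). The data thus do not show that IL-4/13 acted on Cry2 or Per1 otherwise in the presence of Inf than in its absence.

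Ordered by mean level, the conditions formed a few patterns. Nr1d1, Cry1, Tef and Clock shared the order IL-4/13, control, IL-4/13 + Inf and Inf from high to low, and among neighbours only IL-4/13 + Inf and Inf differed by a call, for Nr1d1. Nr1d2 ran IL-4/13, IL-4/13 + Inf, control and Inf, with no neighbours called. Per1 (Inf, IL-4/13 + Inf, control, IL-4/13) and Cry2 (Inf, control, IL-4/13 + Inf, IL-4/13) differed by a call between their first and second conditions. The orders of Per2, Per3 and Dbp had no neighbours called. The ratio of the highest to the lowest condition mean was 1.72 for Dbp, 1.43 for Per1, 1.40 for Cry2, 1.37 for both Nr1d1 and Clock, and 1.34 for Nr1d2. It was 1.27 for Per2, 1.16 for Per3, 1.12 for Tef and 1.08 for Cry1. On the log2 scale the range of Cry1 was 0.11, larger than that of only 7.82% of tested genes, and that of Dbp, 0.74, was larger than that of 79.5%.

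Per length of exon, in CPM per kilobase over control libraries, Cry1 (6.41) and Tef (6.29) were the most abundant members, followed by Nr1d2 (5.37), Per1 (4.94), Nr1d1 (4.08) and Clock (3.92). Cry2 stood at 2.82, Dbp at 1.38, Per3 at 0.876 and Per2 at 0.771 on the same scale. Per2 thus had the lowest level per length and the widest spread, with a pooled within-condition SD of 0.28 on the log2 scale, larger than that of 79.9% of tested genes. For Per2 a difference under the width of its intervals was not detectable. In Inf libraries it had 6.58, 4.63 and 3.88 CPM and in IL-4/13 + Inf libraries 4.17, 5.28 and 5.20 CPM, so no condition stood apart. Per3 had 9.60, 6.95 and 8.70 CPM in control, 7.88, 7.06 and 9.48 with IL-4/13, 9.30, 7.65 and 8.37 with Inf, and 8.08, 6.97 and 6.68 with both. All 4 ranges of Per3 overlap. Tef and Cry1 completed the set of genes never called, Tef with 49.8, 49.4 and 55.1 CPM with IL-4/13 and 47.5, 47.6 and 44.5 CPM with both mixtures, Cry1 with 20.36, 23.07 and 24.99 CPM and 23.16, 20.57 and 19.98 CPM.

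Genes that share sequence or position with a member limit some of these values. Exons of Nr1d1 overlap those of Thra, a thyroid hormone receptor on the opposite strand, over 263 bases, 8.55% of the exon length of Nr1d1 (GENCODE M21). Thra had a log2 fold change of 0.02 with Inf (edgeR adjusted p = 0.86) and of -0.53 with IL-4/13 + Inf against Inf (edgeR adjusted p = 7e-07). It did not move in the direction of Nr1d1 in either. With IL-4/13 against control Thra was at -0.41 (edgeR adjusted p = 8.9e-05) and Nr1d1 at 0.06. In IL-4/13 + Inf against control both were negative, Thra at -0.51 (edgeR adjusted p = 3.3e-07) and Nr1d1 at -0.03. Dbp overlaps the sphingosine kinase gene Sphk2, also on the opposite strand, over 539 bases (18.0% of its exon length). Sphk2 had log2 fold changes of 0.43 with Inf (edgeR adjusted p = 2.5e-05) and 0.24 with IL-4/13 + Inf against control (edgeR adjusted p = 0.013), opposite in sign to those of Dbp. In some comparisons the signs were shared. For IL-4/13 against control Sphk2 was at -0.17 (edgeR adjusted p = 0.22) and Dbp at -0.59 on the log2 scale. For IL-4/13 + Inf against Inf Sphk2 was at -0.19 (edgeR adjusted p = 0.069) and Dbp at -0.47. For Inf against IL-4/13 Sphk2 was at 0.60, called in all 12 fits with 1 library left out, and Dbp at 0.28. For IL-4/13 + Inf against IL-4/13 the signs were opposite, with Sphk2 at 0.41 and Dbp at -0.19. The library kit keeps strand, but the strand setting of the counting is not given in the sources used here, so reads in these overlaps are uncertain. Opposite-strand RNAs D930015M05Rik at Cry2 and Gm17597 at Tef had at most 4 and 9 counts per library. The annotated span of Camta1 overlaps that of Per3, and the spans of Ube2n-ps1 and Gm43658 overlap that of Clock. These overlaps are on the same strand and share no exon bases. Of the stretches of 50 bases in the longest transcript of Nr1d2, 6.0% also occur in AC170187.1, and in the other members the share was at most 0.102%.

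Of 29 further genes of the clock, 28 were tested, Npas2 being too low, and 16 changed with Inf against control, 12 higher and 4 lower, where 16.3% and 15.3% of all tested genes were called. This list holds partners, kinases, ligases and outputs of the clock. Its median log2 fold change was 0.11, against 0.01 over all tested genes. Bmal1, the partner of CLOCK, was the clearest. It had 50.3, 47.4 and 48.2 CPM in control (48.7 ± 1.50, n = 3) and 77.8, 83.3 and 82.3 CPM in Inf libraries (81.1 ± 2.92, n = 3). The log2 fold change of 0.74 (SE 0.056, edgeR adjusted p = 2.8e-12) was opposite in sign to that of Clock.

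A higher count ratio of Bmal1 to Clock does not by itself show that these genes moved in opposite directions. Taken within a library, the ratio does not depend on scaling. It was 0.954, 0.893 and 0.871 in control and 0.742, 0.867 and 0.872 with IL-4/13. It reached 1.93, 1.83 and 2.38 with Inf and 1.40, 1.65 and 1.50 with both. The 6 libraries without Inf thus all lay below the 6 with Inf, and the IL-4/13 + Inf libraries lay below every Inf library. A count ratio of 1 does not mark equal levels, as the genes differ in length. Per kilobase of exon, Bmal1 stood above Clock in control too (6.47 against 3.92 CPM). Bmal1 itself was 69.8 ± 2.67 CPM with both (n = 3) and was not called against Inf (log2 fold change -0.22, 95% interval -0.33 to -0.11, edgeR adjusted p = 0.0037), being inside the fold threshold.

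**Figure D4:**
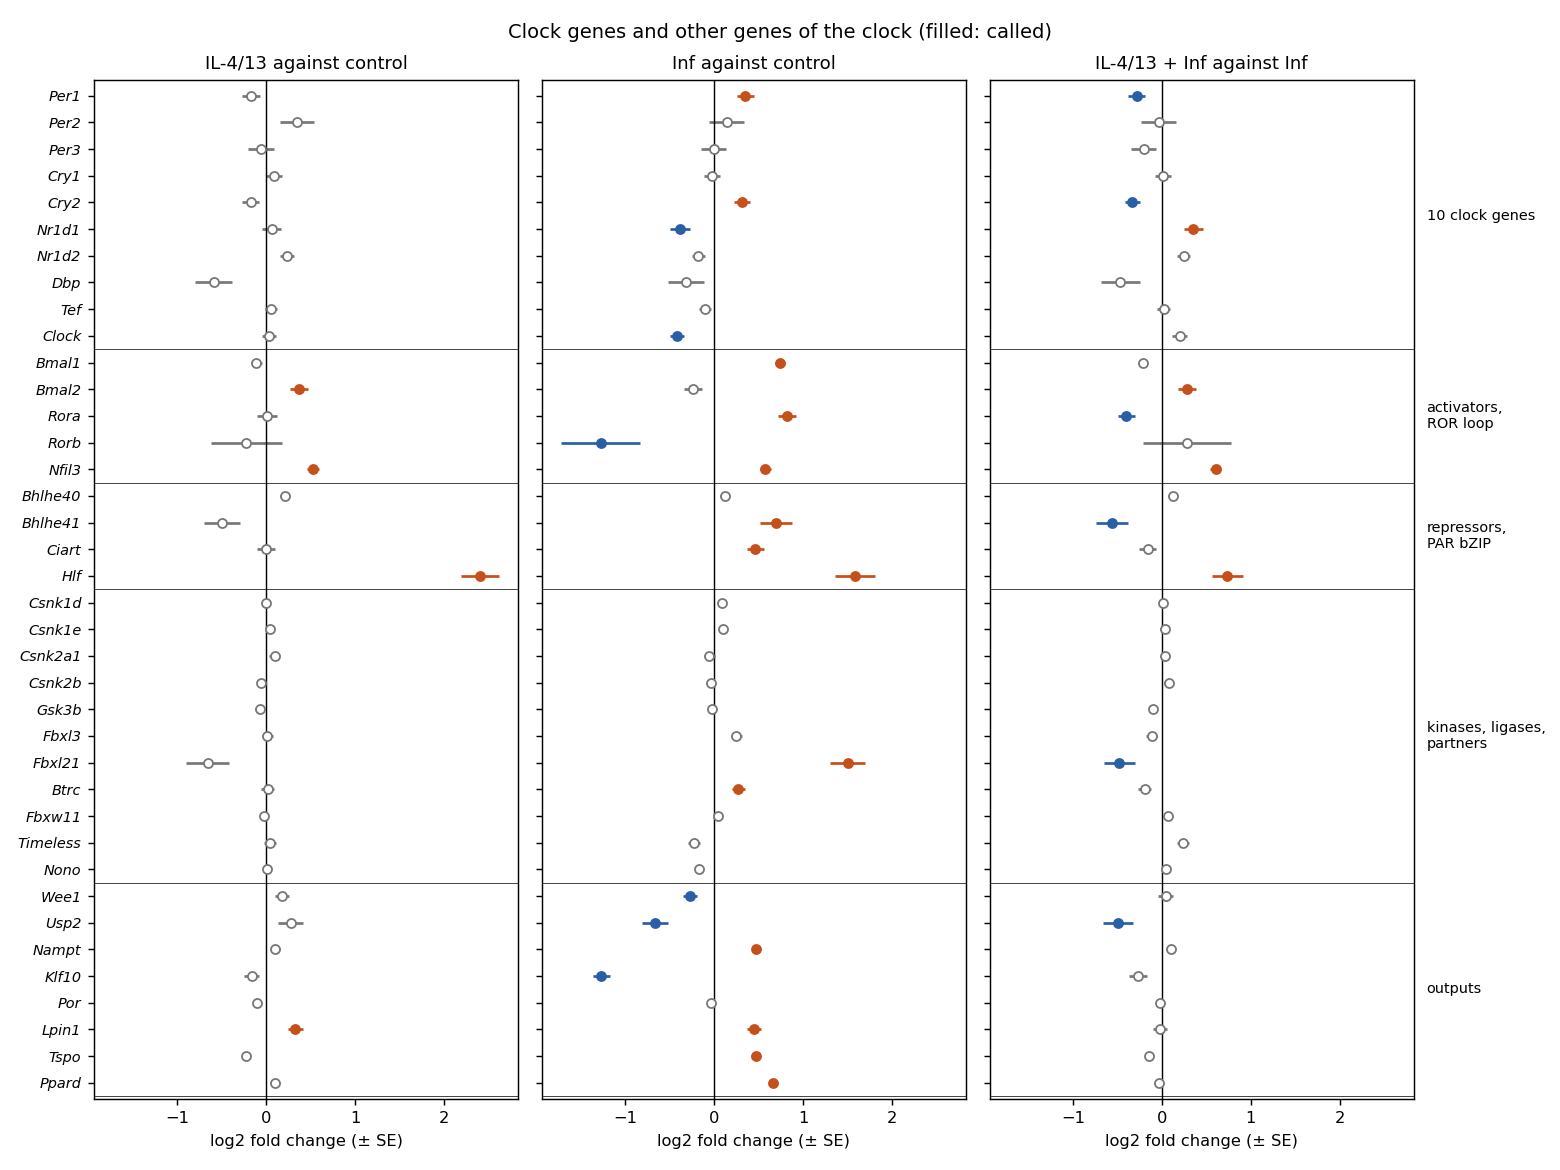
Fitted log2 fold change (± SE) of the 10 clock genes and of 28 other genes of the clock by role, in 3 comparisons, with filled points for called genes (red higher, blue lower). With Inf, Bmal1, Rora and Nfil3 lie to the right of 0 while Clock and Nr1d1 lie to the left.

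Among activators and genes of the ROR loop, 3 of 5 tested rose and 1 fell with Inf, Bmal1 among the risers. Rora, a receptor that activates through the elements REV-ERBs repress, rose at a log2 fold change of 0.82 (edgeR adjusted p = 6.9e-08). Rorb, a related receptor at 1.24 ± 0.29 CPM in control (n = 3), fell at -1.28 (edgeR adjusted p = 0.02) and lost its call without control replicate 3 (-1.07) or Inf replicate 2 (-0.94). Nfil3, the D-box repressor, rose at 0.58 with Inf (edgeR adjusted p = 1.7e-08), at 0.53 with IL-4/13 (edgeR adjusted p = 1.4e-06) and at 1.18 with both (edgeR adjusted p = 9.3e-16). Its means were 36.1 ± 2.89, 52.0 ± 2.96, 53.8 ± 1.01 and 81.7 ± 3.35 CPM in the control, the IL-4/13, the Inf and the combined libraries (n = 3 each).

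Nfil3 and Dbp, which act at the same sequence with opposite sign, thus stood farthest apart with both mixtures. The count ratio of Nfil3 to Dbp was 7.51 to 10.7 in control, 16.2 to 22.8 with IL-4/13 and 14.1 to 20.7 with Inf. With both it was 31.9 to 35.8, above all 9 other libraries. The IL-4/13 and Inf ranges overlap each other and lie above control.

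Among repressors and PAR bZIP genes outside the 10, 3 of 4 rose with Inf. Bhlhe41 (log2 fold change 0.70, edgeR adjusted p = 0.0024) and Ciart (0.46, edgeR adjusted p = 0.00028), which both dampen CLOCK and BMAL1, rose, as Per1 and Cry2 did. The other Period and cryptochrome genes, Per2 (0.14), Per3 (-0.01) and Cry1 (-0.02), were not called. Hlf, the PAR bZIP relative of Dbp and Tef, rose at 1.58 with Inf (edgeR adjusted p = 1.2e-06) and at 2.40 with IL-4/13 (edgeR adjusted p = 1e-09). The third PAR bZIP gene went up where Dbp had negative and Tef uncalled values. Bhlhe40 was not called (0.12, edgeR adjusted p = 0.081).

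Of 11 kinases, ligases and partners, 2 rose with Inf and none fell. Fbxl21, a ligase of cryptochromes, rose at a log2 fold change of 1.50 (edgeR adjusted p = 1.5e-07) from 2.33 ± 0.49 to 6.62 ± 0.51 CPM (n = 3 each), and Btrc rose at 0.27 (edgeR adjusted p = 0.002), losing its call without Inf replicate 2 (0.24). The casein kinase genes Csnk1d and Csnk1e were not called. Of 8 outputs, 4 rose and 3 fell. Nampt (0.48), Lpin1 (0.45), Tspo (0.47) and Ppard (0.67) rose, and Wee1 (-0.27), Usp2 (-0.66) and Klf10 (-1.27) fell on the log2 scale. The call of Wee1 was lost without control replicate 2 (-0.23) or Inf replicate 1 (-0.25).

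In the other comparisons fewer genes of this list moved. With IL-4/13 against control 4 of 28 rose and none fell (2.78% and 2.57% of all tested genes), namely Hlf, Nfil3, Bmal2 (0.37, edgeR adjusted p = 0.016) and Lpin1 (0.33, edgeR adjusted p = 0.0069). Bmal2 lost this call without control replicate 1 or IL-4/13 replicate 1 or 3 (0.32 to 0.35). With both mixtures against control 10 of 28 rose and 2 fell, against 13.4% and 11.5% of all tested genes. Against IL-4/13, 9 rose and 4 fell, where the shares of all tested genes were 13.3% and 11.0%. Against Inf, IL-4/13 + Inf gave 3 higher (Nfil3 at 0.60, Hlf at 0.74 and Bmal2 at 0.28) and 4 lower (Rora at -0.40, Bhlhe41 at -0.56, Fbxl21 at -0.48 and Usp2 at -0.50), where 7.55% and 7.00% of all tested genes were called. Rora, Nfil3 and Hlf were called in all 12 fits with 1 library left out, Bhlhe41, Fbxl21 and Usp2 in 8 and Bmal2 in 6. Between the mixtures, 9 were higher and 6 lower with Inf than with IL-4/13 (19.5% and 18.0% of all tested genes), Timeless (-0.27) being called in that comparison alone.

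Genes whose pattern over the 12 libraries was most like that of the 3 members with the widest range were found by the root mean square difference of centred log2 CPM. For Dbp these were Col5a1 (0.13), Myo7a (0.14) and Akap12 (0.14). For Per1 they were Zer1 (0.083), Gaa (0.089) and Parp3 (0.090), and for Cry2 Dpcd (0.056), Mnt (0.064) and Narf (0.067). These values share library and depth with the members and are descriptions only.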

How the data were processed

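Counts per gene were deposited by the authors as 1 table of whole, unnormalized reads. Per the labels, reads were aligned with STAR to GRCm39 and counted with featureCounts. Versions, the annotation and the strand setting are not given in the sources used here, and rows carried gene IDs and symbols. Counts were analysed in R 4.3.3 with edgeR 4.0.16 (filterByExpr with a minimum count of 10, TMM, robust quasi-likelihood test) in 1 fit of 4 conditions and 12 libraries, with 1 contrast per comparison. DESeq2 1.42.0, named in the study's methods, was an alternative. The thresholds of 0.05 and 0.25 are those the study gives for other data. Promoters came from RefSeq (GRCm38.p6) and lengths and overlaps from GENCODE M21.

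Members and gene lists were chosen with earlier results of these data known. Named were all 10 members, clock list genes called in any comparison, overlapping genes and nearest patterns. Csnk1d, Csnk1e and Bhlhe40 were named after their values were seen, and so were the gene pairs whose count ratios are given. 1 gene of the clock list is not reported here. Replicate numbers did not pair libraries (18 same-numbered pairs correlated at -0.15 to 0.054).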

Additional observations from a re-analysis of the deposited data

Results flagged for a closer look

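No clock gene of the 10 was called in the interaction test of the response to IL-4/13 with and without Inf. Of 28 other genes of the clock, 0 were called higher and 2 lower, against 1.52% and 1.59% of all tested genes. For Hlf the response to IL-4/13 was smaller with Inf by -1.67 on the log2 scale (SE 0.28, edgeR adjusted p = 0.00033). Hlf stood at 1.43, 0.806 and 1.62 CPM in control, 6.05, 7.19 and 7.42 with IL-4/13, 4.19, 3.94 and 3.52 with Inf and 5.85, 6.24 and 7.42 with both, and it was called in all 12 fits with 1 library left out. For Usp2 the same difference was -0.77 (SE 0.22, edgeR adjusted p = 0.043), with a response of 0.28 without Inf and -0.50 with it, and the call held in 2 of 12 fits with 1 library left out.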

How the results depend on the processing

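Depth limits Dbp and Per2 most, with 36 to 85 and 63 to 118 counts per library. Counts of called clock genes were within 1.5 times the reported ones with DESeq2, with DESeq2 size factors, with library size alone and with no filter. Clock in IL-4/13 + Inf against IL-4/13 was lost (0 lower) with a mean of at least 50 counts (-0.25 on the log2 scale) and when only libraries of these 2 groups entered the fit (-0.25), both just inside the fold threshold. With the replicate number as a block, called counts were the same in every comparison (for example 2 higher and 2 lower with Inf), and Per3 turned to 0.0066 with Inf.

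A fold threshold of 0 added Nr1d2 with IL-4/13 (1 higher) and in IL-4/13 + Inf against Inf (2 higher), and Clock in IL-4/13 + Inf against control (2 lower). A threshold of 0.5 left 1 call, 1 lower for Dbp in IL-4/13 + Inf against control, beside 1 higher for Per1 in Inf against IL-4/13, and 0 elsewhere. A threshold of 1 left 0. An adjusted p of 0.01 left 0 higher and 1 lower in IL-4/13 + Inf against Inf and 0 in IL-4/13 + Inf against IL-4/13.

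With 1 library left out, genes called higher numbered 0 to 1 with IL-4/13, 1 to 2 with Inf and 0 to 3 in IL-4/13 + Inf against Inf. Genes called lower numbered 0 to 1 with IL-4/13, 0 to 2 in IL-4/13 + Inf against control, 1 to 3 against Inf and 0 to 1 against IL-4/13. A mean of at least 50 counts turned 4 uncalled values, Per3 with Inf (0.016), Cry1 (-0.0027) and Tef (-0.00052) in IL-4/13 + Inf against Inf, beside Nr1d2 in its interaction (-0.0085). Uncalled log2 values that changed sign with 1 library left out ranged as follows. Per3 ran from -0.17 to 0.051 with IL-4/13, from -0.12 to 0.11 with Inf and from -0.032 to 0.17 in Inf against IL-4/13. Clock ran from -0.057 to 0.082 with IL-4/13. Per2 ran from -0.081 to 0.32 with Inf, from -0.011 to 0.29 in IL-4/13 + Inf against control and from -0.18 to 0.19 against Inf. Cry1 ran from -0.075 to 0.017, from -0.071 to 0.036 and from -0.053 to 0.070 in the same 3 comparisons. In IL-4/13 + Inf against control Per1 ran from -0.072 to 0.19, Cry2 from -0.037 to 0.016 and Nr1d1 from -0.10 to 0.018. Tef ran from -0.030 to 0.091 against Inf. Interaction values ran from -0.24 to 0.025 for Per1, -0.039 to 0.082 for Nr1d2, -0.056 to 0.24 for Dbp and -0.089 to 0.035 for Tef. The comparison of Inf with IL-4/13 was added to these alternatives after the data were seen. The cause of these shifts was not tested.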
